A study of Mus musculus with 18 samples.

Results

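The colony-stimulating factors, IL-34 and their receptors were followed through RNA of a microglia-directed ribosome pulldown and of brain homogenate from mice given lipopolysaccharide (LPS). The set comprised 8 genes, taken by symbol from the 36172 genes listed: the ligands Csf1, Il34 and Csf3, the receptor Csf1r, the receptor chains Csf2ra, Csf2rb and Csf2rb2, and the receptor Csf3r. All 8 passed the filter on low counts and were among the 14803 genes tested. Csf3 passed it only through the LPS groups, so a difference between treatments for Csf3 was built into its passing.

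As background, CSF1 and IL-34 are alternative ligands of the receptor tyrosine kinase CSF1R, and microglia depend on that receptor for survival and renewal. In the brain IL-34 comes mainly from neurons, and CSF1 from glia. GM-CSF, the product of Csf2, binds the alpha chain CSF2RA, which signals with a common beta chain, CSF2RB. Mice carry an additional beta chain, CSF2RB2, which serves interleukin-3. G-CSF, the product of Csf3, acts through CSF3R and is best known for driving the production of neutrophils.

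All animals were Cx3cr1-Cre/ERT2+; NuTRAP+ mice, in which tamoxifen given for 5 days at about 3 months of age switched on a ribosomal protein carrying an EGFP tag wherever the Cx3cr1 promoter drives Cre. That promoter is active in microglia and also in other macrophages and monocytes. The study waited some weeks after tamoxifen so that labelled monocytes in the blood, which are short-lived, would be replaced by unlabelled ones. Then 4 animals received PBS (2 female and 2 male) and 5 received LPS at 5 mg/kg (4 female and 1 male), and brains were taken 24 h after the injection. From each animal RNA was sequenced from a part of the cleared brain homogenate set aside before the pulldown (input) and from ribosomes pulled down with an anti-GFP antibody (positive fraction). The input library of LPS animal 271 held 1252 counts and was left out, leaving 17 libraries of 22968939 to 35123345 counts each: 4 of input after PBS (Input PBS), 4 of input after LPS (Input LPS), 4 of the positive fraction after PBS (Positive PBS) and 5 after LPS (Positive LPS). Levels are given as normalised counts, the estimated counts divided by a size factor per library. A gene was called where the edgeR adjusted p was below 0.05 and the higher level exceeded the lower by over 25%, a limit called here the fold threshold.

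The label of the positive fraction was checked against marker genes. All 16 microglia markers were called higher in the positive fraction than in input in both treatments, and so were all 8 markers of border-associated macrophages and, of 10 endothelial markers, 9 in PBS and 7 in LPS animals. The summed level of the 16 microglia markers ranged from 247809 to 291741 normalised counts in Positive PBS and from 201559 to 280837 in Positive LPS, against 12942 to 17237 in Input PBS and 12866 to 18475 in Input LPS. All 9 oligodendrocyte markers were called lower in the positive fraction in both treatments. The mean sums of neuron and astrocyte markers were not lower than in input in PBS animals. The neuron sum ran from 225113 to 258528 in Positive PBS and from 218959 to 230731 in Input PBS. The astrocyte sum ran from 142980 to 193795 and from 144376 to 146954. In LPS animals the means were 202985 against 206162 in input for neurons and 154256 against 156836 for astrocytes, with overlapping ranges. Of 9 astrocyte markers, 3 were called lower and 1 higher in PBS, and 5 lower and 1 higher in LPS animals. Of 10 neuron markers, 3 were called higher and 0 lower in PBS, and 3 higher and 2 lower in LPS animals. Among all genes tested 20.7% were called higher and 19.2% lower in PBS animals, and 27.1% and 26.4% in LPS animals. In bulk RNA, fewer cells of a type and less RNA per cell cannot be told apart.

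Positions are those of the deposited table in mm10. Csf1 was at chr3:107741048-107760469 (minus strand), Il34 at chr8:110741829-110805903 (minus), Csf3 at chr11:98701313-98703629 (plus), Csf2ra at chr19:61224402-61228418 (minus) and Csf3r at chr4:126024659-126044975 (plus). Csf2rb, at chr15:78325990-78351001 (plus), and Csf2rb2, at chr15:78282510-78305603 (minus), are neighbours. An antisense gene, Gm20024, overlaps Csf2rb and was not tested.

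Csf2rb and Csf2rb2 are near copies, which bears on how far their counts can be separated. Their coding sequences of 2691 and 2637 bases were identical at 95.2% of 2631 aligned bases. Of all 42-base stretches, the length of the trimmed reads, 30.9% of those in the Csf2rb coding sequence also occurred in Csf2rb2, and 31.5% the other way. Reads from those stretches fit both genes, so the division of counts between them is uncertain. Over the whole transcripts the shares were lower, 21.7% and 22.5%. The shares are for single reads, and pairs of reads were not examined. The first 120 coding bases are shown as an alike part. Beside them are the least alike 120 bases aligned without a gap. The last 269 columns of the alignment, where 61 differed and 54 of these were gaps, are not shown. Capitals mark the bases that differ, 4 in the first pair and 22 in the second. The sequences are from the mm10 reference transcripts, 5′ to 3′ along each gene, and each stretch crosses an intron. For Csf2rb they lie within chr15:78335207-78336379 and chr15:78338898-78340471, and for Csf2rb2 within chr15:78297071-78298229 and chr15:78292838-78294433.
Csf2rb, first: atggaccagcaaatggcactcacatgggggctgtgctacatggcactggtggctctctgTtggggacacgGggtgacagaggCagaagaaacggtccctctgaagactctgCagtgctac
Csf2rb2, first: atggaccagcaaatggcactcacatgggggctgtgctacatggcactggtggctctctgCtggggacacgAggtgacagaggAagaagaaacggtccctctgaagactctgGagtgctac
Csf2rb, least alike: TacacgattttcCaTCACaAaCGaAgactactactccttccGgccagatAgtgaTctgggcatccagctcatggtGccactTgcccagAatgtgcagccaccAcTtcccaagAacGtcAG
Csf2rb2, least alike: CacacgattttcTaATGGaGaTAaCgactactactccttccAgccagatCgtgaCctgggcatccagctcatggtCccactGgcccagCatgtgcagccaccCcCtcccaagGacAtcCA

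Csf3 carries AU-rich elements, the ATTTA repeats in the 3′ UTR that mark cytokine messages for rapid decay. Its 3′ UTR of 669 bases held 6 ATTTA, or 8.97 per kilobase, and 1.81% of 20503 genes with a 3′ UTR held at least as many per kilobase. Csf1 held 4 ATTTA, Csf1r 3 and Il34 1, and none was found in Csf2ra, Csf2rb, Csf2rb2 or Csf3r. A 30-base window of the 2 genes with the most copies among the 8 is shown, ATTTA in capitals, in the sense direction, at chr11:98702984-98703013 for Csf3 and chr3:107741109-107741138 for Csf1.
Csf3, AU-rich window: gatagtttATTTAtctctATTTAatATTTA
Csf1, AU-rich window: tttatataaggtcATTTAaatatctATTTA

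Csf1, the ligand of CSF1R, was higher after LPS in both fractions. In the positive fraction the PBS animals 268, 272, 273 and 506 had 539, 668, 676 and 554 normalised counts, and the LPS animals 266, 267, 270, 271 and 507 had 1068, 1113, 1027, 997 and 973. Every LPS library lay above every PBS library. The fitted difference was 1.70-fold (log2 fold change 0.76 ± 0.087 SE, edgeR adjusted p = 2.15e-06). In input Csf1 went from 725, 807, 773 and 815 normalised counts in PBS animals 268, 272, 273 and 506 to 1174, 1148, 1259 and 1328 in LPS animals 266, 267, 270 and 507. The groups again did not overlap, and the difference was 1.58-fold (log2 0.66 ± 0.090, adjusted p = 6.45e-05). The LPS effect did not differ detectably between fractions (difference 0.11 ± 0.12 on the log2 scale, adjusted p = 0.702). Csf1 was lower in the positive fraction than in input in PBS animals by 1.29-fold (log2 -0.36 ± 0.091, adjusted p = 0.00331). That call was lost for its fold without Positive PBS 268 (-0.31) or Positive PBS 506 (-0.32). In LPS animals the value was -0.26 ± 0.085 (adjusted p = 0.0146), under the fold threshold.

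Il34, the other ligand of CSF1R, was lower after LPS in the positive fraction. The Positive PBS libraries of animals 268, 272, 273 and 506 had 787, 957, 866 and 894 normalised counts and the Positive LPS libraries of animals 266, 267, 270, 271 and 507 had 684, 656, 642, 601 and 660. The groups did not overlap. Il34 fell 1.35-fold there (log2 -0.44 ± 0.078, edgeR adjusted p = 0.000225). In input the PBS animals 268, 272, 273 and 506 had 1048, 1109, 1044 and 1043 normalised counts and the LPS animals 266, 267, 270 and 507 had 1003, 906, 865 and 865. All 4 LPS values lay below the 4 PBS values, but the difference did not pass the test (log2 -0.22 ± 0.081, adjusted p = 0.0803). The 2 LPS effects were not distinguished from each other (-0.22 ± 0.11, adjusted p = 0.310). In LPS animals Il34 was lower in the positive fraction than in input by 1.41-fold (log2 -0.50 ± 0.077, adjusted p = 2.40e-05). In PBS animals the value was -0.28 ± 0.081 (adjusted p = 0.00842), under the fold threshold, and it passed without Positive PBS 272 (-0.33, adjusted p = 0.00601). Neuron markers are given beside Il34, since neurons are its main source in the brain. Of 10 such markers 5 fell in the positive fraction after LPS (against 14.9% of all genes tested) and 0 fell in input (against 5.17%). Their sum ran from 225113 to 258528 normalised counts in Positive PBS and from 170751 to 230547 in Positive LPS, and from 218959 to 230731 in Input PBS and from 201143 to 213761 in Input LPS. Their part in the change of Il34 was not tested.

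The ratio of Csf1 to Il34 counts differed between treatments in both fractions. The log2 ratio of Csf1 to Il34 was -0.55, -0.52, -0.36 and -0.69 in Positive PBS animals 268, 272, 273 and 506 and 0.64, 0.76, 0.68, 0.73 and 0.56 in Positive LPS animals 266, 267, 270, 271 and 507. Counts not corrected for length were higher for Il34 in every PBS library and for Csf1 in every LPS library. The mean rose from -0.53 ± 0.14 (SD, n = 4) to 0.67 ± 0.079 (n = 5), a 2.30-fold change. The exact two-sided permutation p was 0.0159, the smallest that 126 arrangements allow. Benjamini-Hochberg adjustment, made over both fractions for this ratio alone and not over all ratio tests, gave 0.0286. In input the mean rose from -0.44 ± 0.073 (n = 4) to 0.43 ± 0.18 (n = 4), a 1.84-fold change. The exact permutation p there was 0.0286, the smallest that 70 arrangements allow, and 0.0286 after the same adjustment. The exonic length is 4720 bases for Csf1 and 1827 for Il34. Per kilobase the mean of Il34 stayed above that of Csf1 in each of the 4 groups.

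**Figure D1:**
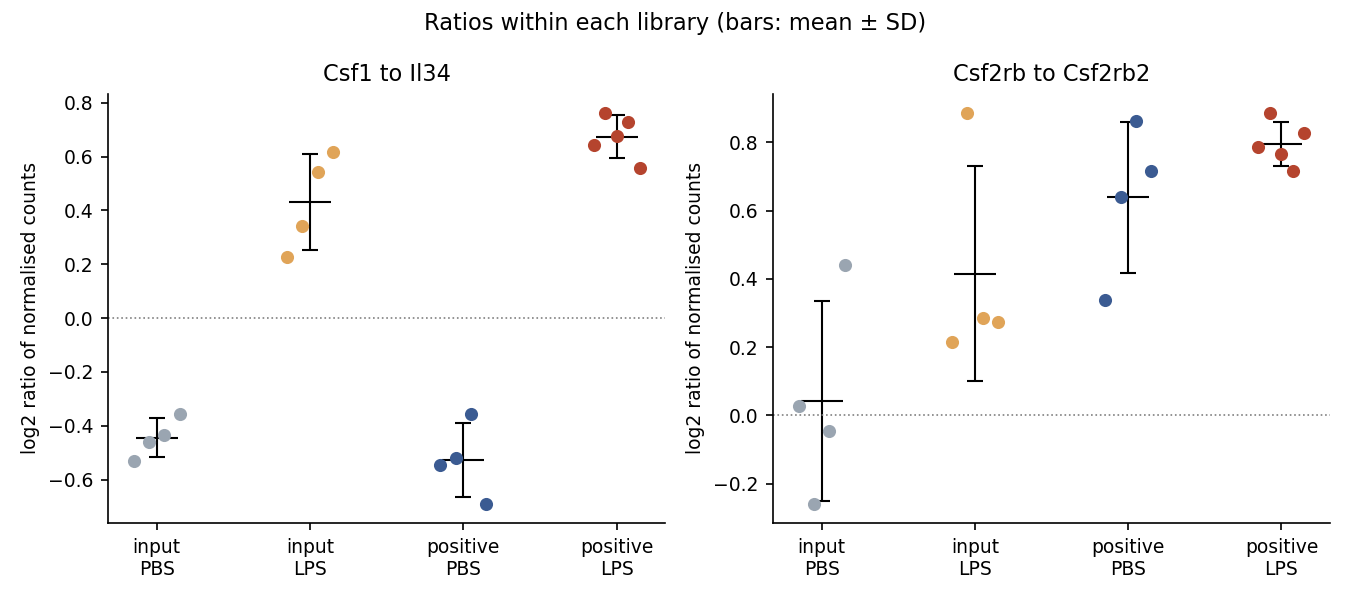
Log2 ratio of normalised counts (vertical axis) of Csf1 to Il34 and of Csf2rb to Csf2rb2 in each library of the 4 groups, a point per library, with bars at the mean ± SD. The Csf1 to Il34 ratio lies below 0 in all PBS libraries and above 0 in all LPS libraries, while the Csf2rb to Csf2rb2 ratios of the treatments overlap in both fractions.

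Csf3, which encodes G-CSF, had the widest range of the 8 genes. Positive PBS libraries of animals 268, 272, 273 and 506 held 4.36, 3.81, 10.4 and 11.5 normalised counts, and Positive LPS libraries of animals 266, 267, 270, 271 and 507 held 501, 1001, 321, 728 and 457.7. Input rose from 9.11, 11.4, 3.80 and 5.72 in the same PBS animals to 491, 594, 222 and 323 in LPS animals 266, 267, 270 and 507. The PBS and LPS libraries were far apart in both fractions, and animal 270 had the lowest LPS value in each. The fitted increase was 82.3-fold in the positive fraction (log2 6.36 ± 0.47) and 53.9-fold in input (5.75 ± 0.46). Since Csf3 passed the filter through its LPS groups, the p-values of its LPS effects are given from the fit with no filter. The values there were 6.36 (edgeR adjusted p = 1.19e-09) and 5.75 (adjusted p = 2.21e-08). The PBS libraries held 4 to 11 estimated counts of Csf3, so the size of the fold is imprecise. Csf3 was not enriched in the positive fraction by the test. In the fit of the filtered genes, positive over input was -0.06 ± 0.68 in PBS animals (edgeR adjusted p = 0.948) and 0.55 ± 0.31 in LPS animals (adjusted p = 0.126). With no filter the edgeR adjusted p were 0.989 and 0.138. With the animal as a block the LPS value was 0.45 ± 0.16 and was called (adjusted p = 0.0257), and it was also called without Input LPS 267 (0.79, adjusted p = 0.0483) or Positive LPS 270 (0.71, adjusted p = 0.0412).

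Csf1r was by far the most abundant of the 8 in the positive fraction, and no LPS effect on it was detected. PBS animals 268, 272, 273 and 506 had 51654, 50468, 44591 and 53740 normalised counts and LPS animals 266, 267, 270, 271 and 507 had 34774, 47688, 48497, 45873 and 47736. The groups overlapped, and animal 266 lay below all the others. The same library had the lowest summed level of the microglia markers, 201559. The fitted LPS effect was -0.16 ± 0.10 (edgeR adjusted p = 0.216), and an interval of 2 SE ran from -0.36 to 0.04. In input the 4 PBS libraries ranged from 2431 to 2999.6 and the 4 LPS libraries from 2441 to 2986 normalised counts (log2 0.02 ± 0.11, adjusted p = 0.911). Of the 16 microglia markers, 9 fell and 3 rose in the positive fraction after LPS, with a median log2 fold change of -0.47. Among all genes tested 14.9% were called lower there and 18.9% higher. Csf1r was 18.6-fold higher in the positive fraction than in input in PBS animals (log2 4.22 ± 0.12, adjusted p = 2.39e-14) and 16.4-fold in LPS animals (4.04 ± 0.12, adjusted p = 2.26e-14). Its mean stood at percentile 99.8 of the genes tested in both positive groups.

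**Figure D2:**
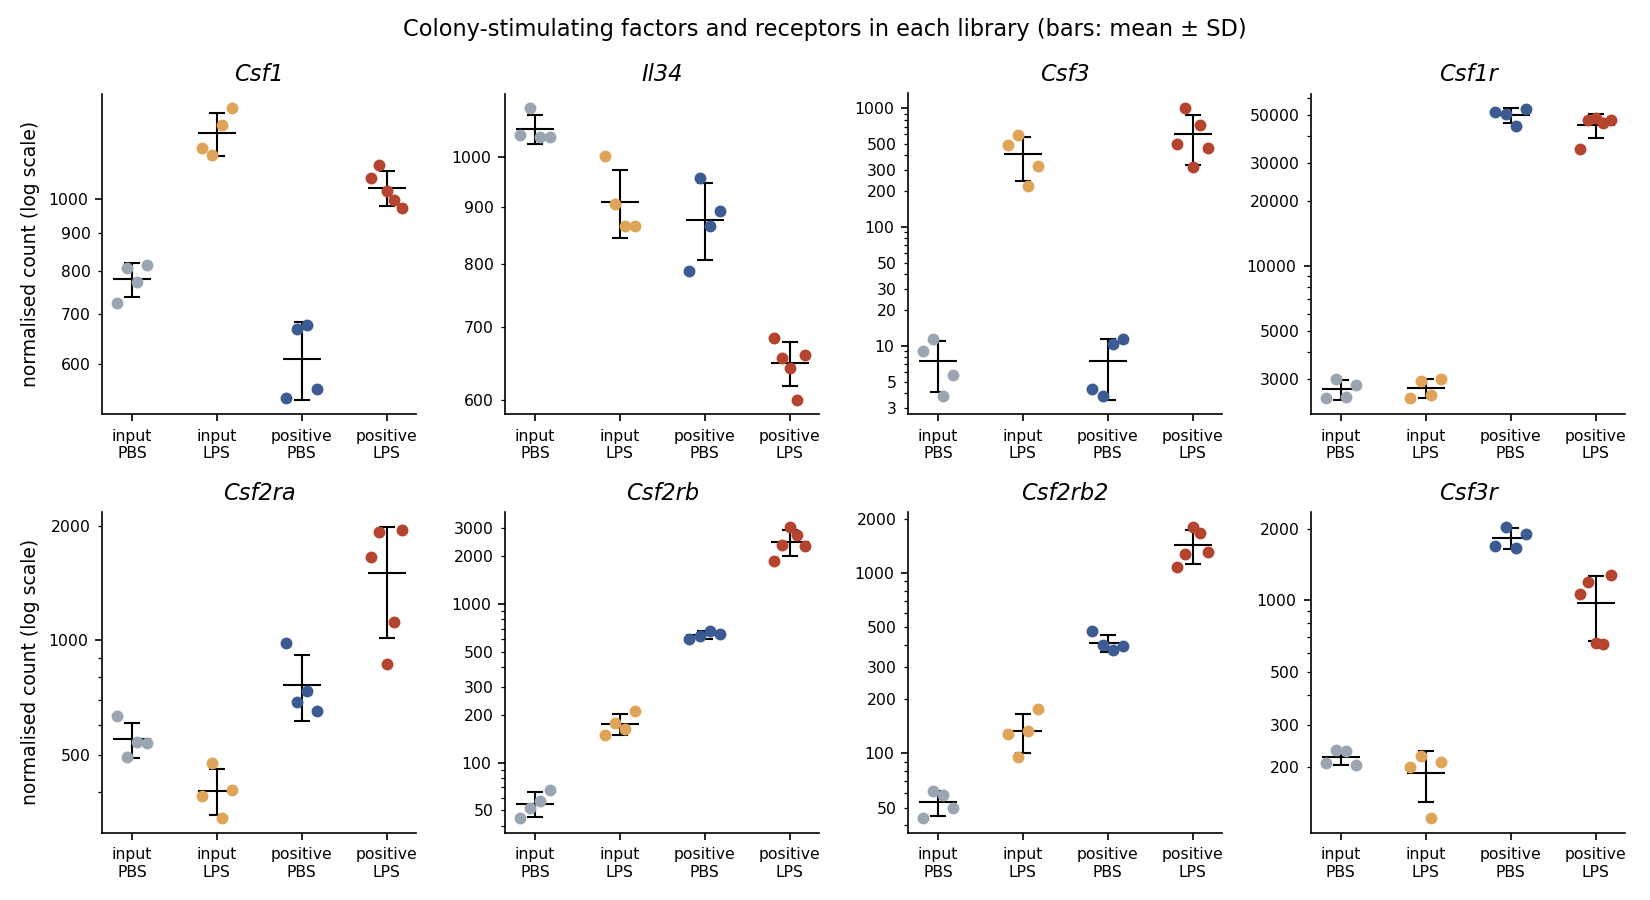
Normalised count (vertical axis, log scale, a scale of its own per gene) of each gene in every library of the 4 groups, a point per library, with bars at the mean ± SD. Csf1, Il34, Csf3, Csf2rb, Csf2rb2 and Csf3r in the positive fraction have no overlap between PBS and LPS libraries, whereas Csf1r and Csf2ra do.

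Csf2rb, the common beta chain of the GM-CSF, interleukin-3 and interleukin-5 receptors, rose after LPS in both fractions. Positive PBS animals 268, 272, 273 and 506 had 600.0, 625, 680.4 and 647 normalised counts and Positive LPS animals 266, 267, 270, 271 and 507 had 1869, 2348, 3081, 2729 and 2309. The lowest LPS library lay above the highest PBS library. The rise was 3.86-fold (log2 1.95 ± 0.14, edgeR adjusted p = 7.20e-09), and the mean moved from percentile 45.3 to percentile 78.1 of the genes tested. In input Csf2rb went from 44.7, 51.6, 57.0 and 67.6 normalised counts in PBS animals 268, 272, 273 and 506 to 149, 177, 163 and 213 in LPS animals 266, 267, 270 and 507, again with no overlap (3.19-fold, log2 1.67 ± 0.16, adjusted p = 1.61e-06). It was 11.5-fold higher in the positive fraction than in input in PBS animals (log2 3.52 ± 0.17, adjusted p = 6.42e-12) and 13.9-fold in LPS animals (3.80 ± 0.15, adjusted p = 5.47e-13).

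Csf2rb2, the beta chain used by the mouse interleukin-3 receptor, followed the same course, at lower counts in the positive fraction. Its positive fraction held 475, 401, 373 and 394 normalised counts in PBS animals 268, 272, 273 and 506 and 1083, 1270, 1811, 1661 and 1302 in LPS animals 266, 267, 270, 271 and 507. Those groups did not overlap, and the rise was 3.47-fold (log2 1.79 ± 0.17, edgeR adjusted p = 2.60e-07). Input values ran from 43.7 to 61.9 in the 4 PBS libraries and from 95.6 to 176 in the 4 LPS libraries (2.51-fold, log2 1.33 ± 0.20, adjusted p = 0.00015). Positive over input was 7.64-fold in PBS animals (adjusted p = 9.00e-10) and 10.6-fold in LPS animals (adjusted p = 3.17e-11). The log2 ratio of Csf2rb to Csf2rb2 averaged 0.64 ± 0.22 (SD, n = 4) in Positive PBS and 0.80 ± 0.064 (n = 5) in Positive LPS, and the difference of 0.16 was within the spread (exact permutation p = 0.175). In input the ratio went from 0.04 ± 0.29 to 0.42 ± 0.31 (exact permutation p = 0.114). The reads shared by the pair bear on this ratio, and how far they set it was not tested.

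Csf2ra, the alpha chain that binds GM-CSF, was the only one of the 8 genes called for a different LPS effect in the positive fraction than in input. Positive PBS animals 268, 272, 273 and 506 had 988, 689, 738 and 652 normalised counts and Positive LPS animals 266, 267, 270, 271 and 507 had 1650.4, 1923, 869.9, 1117 and 1947. The groups overlapped, since LPS animal 270 lay below PBS animal 268. LPS animal 271 lay above all PBS animals, and animals 270 and 271 both lay below the other LPS animals. The rise was 1.96-fold (log2 0.97 ± 0.20, edgeR adjusted p = 0.000915). In input the direction of the values was opposite, from 632, 494, 542 and 537 normalised counts in PBS animals 268, 272, 273 and 506 to 391, 478, 342 and 406 in LPS animals 266, 267, 270 and 507, with all LPS values below the PBS values. That input difference did not pass the test in the fit of all 17 libraries (log2 -0.45 ± 0.21, adjusted p = 0.176) and did pass in a fit of the input libraries alone (-0.46, adjusted p = 0.0247). The LPS effect was larger in the positive fraction than in input by 1.41 ± 0.29 on the log2 scale (adjusted p = 0.00570). Without animals 506 and 507, whose numbers stand apart from the rest, it was 1.248 and no longer called (adjusted p = 0.0860).

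The placement of Csf2ra between fractions changed accordingly. Positive over input was 0.47 ± 0.21 in PBS animals (edgeR adjusted p = 0.0773), not called, and 1.88 ± 0.21 in LPS animals (3.69-fold, adjusted p = 4.63e-07). With the animal as a block the PBS value was 0.46 ± 0.12 and was called (adjusted p = 0.00521), as it was without Positive LPS 270 (0.46, adjusted p = 0.0302). Within single animals the log2 ratio of positive to input ran from 0.28 to 0.64 in the 4 PBS animals and from 1.34 to 2.26 in the 4 LPS animals with both libraries, with no overlap. The other GM-CSF receptor chain, Csf2rb, had no such difference by the test (0.28 ± 0.21, adjusted p = 0.529).

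**Figure D3:**
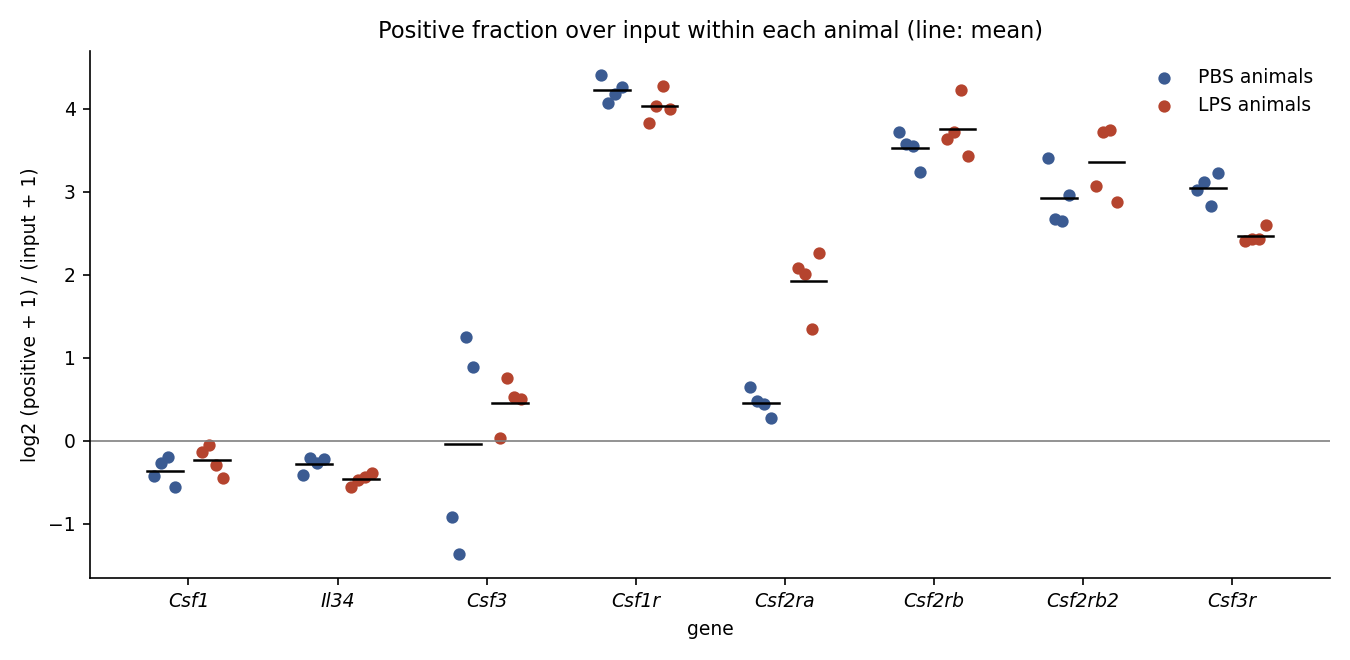
Log2 ratio of positive to input normalised counts, each with 1 added (vertical axis), within each of 4 PBS and 4 LPS animals for the 8 genes, a point per animal and a line at the mean. Csf1r, Csf2rb, Csf2rb2 and Csf3r lie well above 0 in all animals, Csf1 and Il34 lie below 0, and Csf2ra is the gene whose LPS animals all lie far above its PBS animals.

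Csf3r, the receptor of G-CSF, fell in the positive fraction while its ligand rose. PBS animals 268, 272, 273 and 506 had 1693, 2043, 1665 and 1908 normalised counts and LPS animals 266, 267, 270, 271 and 507 had 1065, 1199.6, 662, 656 and 1282. All LPS libraries lay below all PBS libraries, with animals 270 and 271 lowest. The fall was 1.88-fold (log2 -0.91 ± 0.19, edgeR adjusted p = 0.000936). In input the PBS libraries of animals 268, 272, 273 and 506 had 208, 234, 233 and 203 normalised counts and the LPS libraries of animals 266, 267, 270 and 507 had 199, 222, 122 and 210.0. Those groups overlapped (log2 -0.22 ± 0.21, adjusted p = 0.548). The difference between the LPS effects was -0.69 ± 0.29 and not called (adjusted p = 0.178). With the animal as a block it was -0.58 ± 0.12 and called (adjusted p = 0.00518). Csf3r was 8.28-fold higher in the positive fraction than in input in PBS animals (log2 3.05 ± 0.22, adjusted p = 2.25e-09) and 5.13-fold in LPS animals (2.36 ± 0.21, adjusted p = 2.70e-08).

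CSF3R and the beta chains are also used by neutrophils and monocytes, and the markers of these cells are given beside them. Of 14 neutrophil markers 8 were tested, and 6 rose in the positive fraction and 7 in input. Their summed level went from 396 to 759 normalised counts in Positive PBS to 11530 to 27864 in Positive LPS, and from 677 to 1166 in Input PBS to 6658 to 11418 in Input LPS. Lcn2, which astrocytes and endothelial cells also make after LPS, carried most of the sums in the LPS groups. Without it, a sum taken after the values were seen, they ran from 258 to 536 in Positive PBS, 552 to 1245 in Positive LPS, 533 to 932 in Input PBS and 928 to 1863 in Input LPS. S100a8 went from a mean of 15.8 to 415 normalised counts in the positive fraction. Ly6g, which defines neutrophils, was listed at 0 in every library, and Elane was listed at 0 in both positive groups. Acta2, a gene of smooth muscle cells, which brain vessels hold, was also listed at 0 in every library, so a listed 0 may not mean absence. Cxcr2 had means of 140 and 143 in the positive groups. Of 8 monocyte markers 6 were tested, and 2 rose and 2 fell in the positive fraction and 1 rose in input. The monocyte sum ranged from 1268 to 3149 in Positive PBS and from 834 to 1968 in Positive LPS, and from 1237 to 2003 in Input PBS and 1030 to 1592 in Input LPS. Of the 8 border-associated macrophage markers 5 fell in the positive fraction and 1 fell in input, and their sum went from 5158 to 10046 in Positive PBS to 3498 to 5939 in Positive LPS. Their part in the changes of Csf3r, Csf2ra, Csf2rb and Csf2rb2 was not tested.

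Csf3 is set aside in the counts of LPS effects, since its passing the filter rested on them. Of the other 7 genes, 6 were called in the positive fraction, 4 higher and 2 lower, where 33.8% of all genes tested were called (18.9% higher and 14.9% lower). In input 3 of the 7 were called, all higher, against 12.4% of all genes (7.19% higher and 5.17% lower). The 3 were Csf1, Csf2rb and Csf2rb2, which also rose in the positive fraction. The ranges of PBS and LPS libraries did not overlap for 5 of the 7 in the positive fraction and for 5 in input, against 30.1% and 24.1% of all genes tested. Positive over input was called for 5 of the 8 genes in PBS animals, 4 higher and 1 lower, against 39.9% of all genes (20.7% higher and 19.2% lower). In LPS animals it was called for 6, 5 higher and 1 lower, against 53.4% (27.1% higher and 26.4% lower). A different LPS effect between fractions was called for 1 of 8, higher, against 6.91% of all genes (5.44% higher and 1.47% lower). The median log2 LPS effect over the 7 was 0.76 in the positive fraction and 0.02 in input, beside 0.01 and 0.0055 over all genes tested. The comparisons share libraries, so their counts are not independent of each other.

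**Figure D4:**
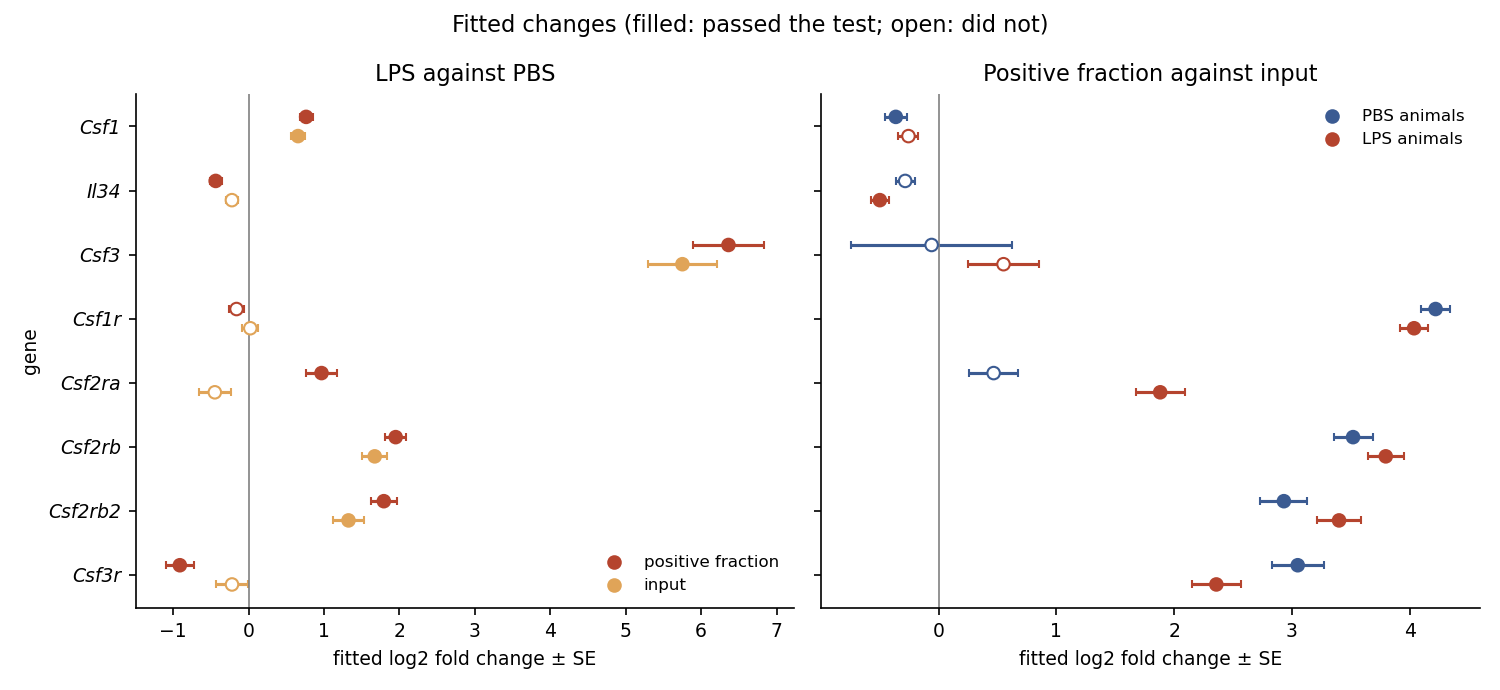
Fitted log2 fold changes (horizontal axis) ± SE of the 8 genes for LPS against PBS in the positive fraction and in input (left) and for the positive fraction against input in PBS and LPS animals (right), filled where called and open where not. Csf3 has the largest LPS effects, 6.36 and 5.75, and Csf1r the largest enrichment, 4.22 and 4.04.

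Levels of different genes were compared as normalised counts per kilobase of exon. In Positive PBS Csf1r had 10259 ± 803 per kilobase (SD, n = 4), followed by Csf3r (521 ± 51.4), Il34 (480 ± 38.6), Csf2ra (412 ± 81.4), Csf1 (129 ± 15.4), Csf2rb (122 ± 6.52), Csf2rb2 (86.6 ± 9.34) and Csf3 (5.32 ± 2.83). The ranges of Csf3r and Il34, of Il34 and Csf2ra, and of Csf1 and Csf2rb overlapped, so these neighbours were not separated. In Positive LPS Csf1r (9194 ± 1177, n = 5) was followed by Csf2ra (807 ± 261), Csf2rb (472 ± 87.8), Csf3 (426 ± 189), Il34 (355 ± 16.7), Csf2rb2 (301 ± 63.4), Csf3r (278 ± 84.7) and Csf1 (219 ± 11.8), and from Csf2ra down each neighbouring pair overlapped. Csf3r thus stood in place 2 of the 8 in Positive PBS and in place 7 in Positive LPS. In Input PBS the means of Il34 (581 ± 17.6 per kilobase) and Csf1r (547 ± 56.7) led with overlapping ranges. In Input LPS Csf1r (555 ± 56.8) and Il34 (498 ± 35.5) led and also overlapped, and Csf3 (289 ± 118) had moved from the lowest place to place 3. Its range there overlapped those of Csf1 and Csf2ra, so places 3 to 5 were not separated.

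Other ligands and receptors related to these were counted too, and several ligands were barely detected. Csf2, the ligand of the Csf2ra receptor, had an estimated count in 5 of 17 libraries and never more than 3. Il3 was likewise found in 5 libraries, with 1.95 estimated counts at most. No fold is given for either. Il5, Il5ra and Tnfsf11 also did not pass the filter, which left 8 of 13 genes tested. Of these Tnfrsf11a, the receptor of RANKL (log2 0.71 ± 0.13, edgeR adjusted p = 0.000231), and Il3ra, the interleukin-3 alpha chain (0.64 ± 0.23, adjusted p = 0.0309), rose in the positive fraction. Sdc1, a heparan sulfate proteoglycan that can bind IL-34, fell there (-1.10 ± 0.25, adjusted p = 0.00199) and in input (-0.92 ± 0.26, adjusted p = 0.0243). Kit (-0.55 ± 0.12, adjusted p = 0.00147) and Flt3 (-0.37 ± 0.12, adjusted p = 0.0206), receptor kinases of the CSF1R family, fell in the positive fraction, and so did Kitl, the ligand of KIT (-0.68 ± 0.15, adjusted p = 0.00175). Ptprz1, another receptor for IL-34, was not called in either fraction (-0.20 in both), nor was Flt3l (0.72, adjusted p = 0.0997, in the positive fraction).

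Genes downstream of the receptors were counted by list, beside the shares called among all genes tested. These were 18.9% higher and 14.9% lower after LPS in the positive fraction, while in input they were 7.19% higher and 5.17% lower. Of 22 genes of receptor-proximal signalling (Src-family kinases, PI3-kinase subunits and adaptors) 12 rose and 1, Src, fell in the positive fraction (median log2 0.53), and 11 rose in input (median 0.45). The largest changes in the positive fraction were of the Src-family kinase Fgr (5.41 ± 0.25, edgeR adjusted p = 5.76e-11) and the GTPase Rac2 (2.11 ± 0.24, adjusted p = 2.48e-06). In input Fgr (2.67) and the PI3-kinase adaptor Pik3ap1 (1.68) were among the genes that rose. Fgr went from a mean of 48.8 to 2082 normalised counts in the positive fraction, and its LPS effect was larger there than in input by 2.74 ± 0.36 (adjusted p = 0.000176). Of 7 JAK and STAT genes 4 rose in the positive fraction and 3 in input, led in both by Stat3 (1.03 and 1.11), the transcription factor that G-CSF activates, and including Stat5a (0.76 and 0.48).

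Several inhibitors of this signalling had a larger LPS effect in the positive fraction than in input. Of 20 genes listed as brakes 10 rose in the positive fraction (median log2 0.63) and 5 in input (median 0.18), and none was called lower in either. In the test of the difference between LPS effects 7 of the 20 were called, all larger in the positive fraction, against 5.44% of all genes. They were led by the docking adaptor Dok3 (2.08 ± 0.29, edgeR adjusted p = 0.000269), the related Dok2 (1.55 ± 0.33, adjusted p = 0.00708) and Socs3, the feedback inhibitor of STAT3 signalling (1.30 ± 0.30, adjusted p = 0.0106). In the positive fraction the mean of Dok3 was 469.6 normalised counts with PBS and 2183 with LPS, and the input means were 163 and 179. In the positive fraction itself Socs3 rose by 3.56, Dok3 by 2.22 and Dok2 by 1.90 on the log2 scale. In input Socs3 (2.25), the phosphatase gene Ptpn6 (1.56) and the adaptor Sla (0.69) rose.

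Of 12 transcription factors of the Csf1r locus and the macrophage lineage that were tested, 7 rose and 3 fell in the positive fraction (median log2 0.44), and 6 rose in input (median 0.53). Cebpb (1.59), Spi1, which encodes PU.1 (1.42), and Cebpd (1.32) rose most in the positive fraction, and Cebpd (1.80), Runx1 (1.07) and Spi1 (1.05) in input. Cebpa, Sall1 and Mef2c, factors of resting microglia and macrophages, fell in the positive fraction by 0.46, 0.44 and 0.33. Of 13 growth-response genes tested 4 rose and 2 fell in the positive fraction, led by Pim1 (1.43), Mcm5 (1.17) and Myc (0.91), and 2, Myc (0.69) and Mcl1 (0.41), rose in input. The proliferation marker Mki67 was not called in either fraction. Of 8 genes of cytokine mRNA decay 4 rose in each fraction, led in the positive fraction by Zc3h12a, an endonuclease of inflammatory messages (3.96 ± 0.30, edgeR adjusted p = 1.58e-08), Zfp36, which binds AU-rich elements (1.10 ± 0.19, adjusted p = 0.000159), and Zfp36l2 (0.72), and in input by Zfp36 (1.81), Zc3h12a (1.79) and Zfp36l2 (0.56). The lists were drawn up with earlier results of these data known, so their counts are descriptions.

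**Figure D5:**
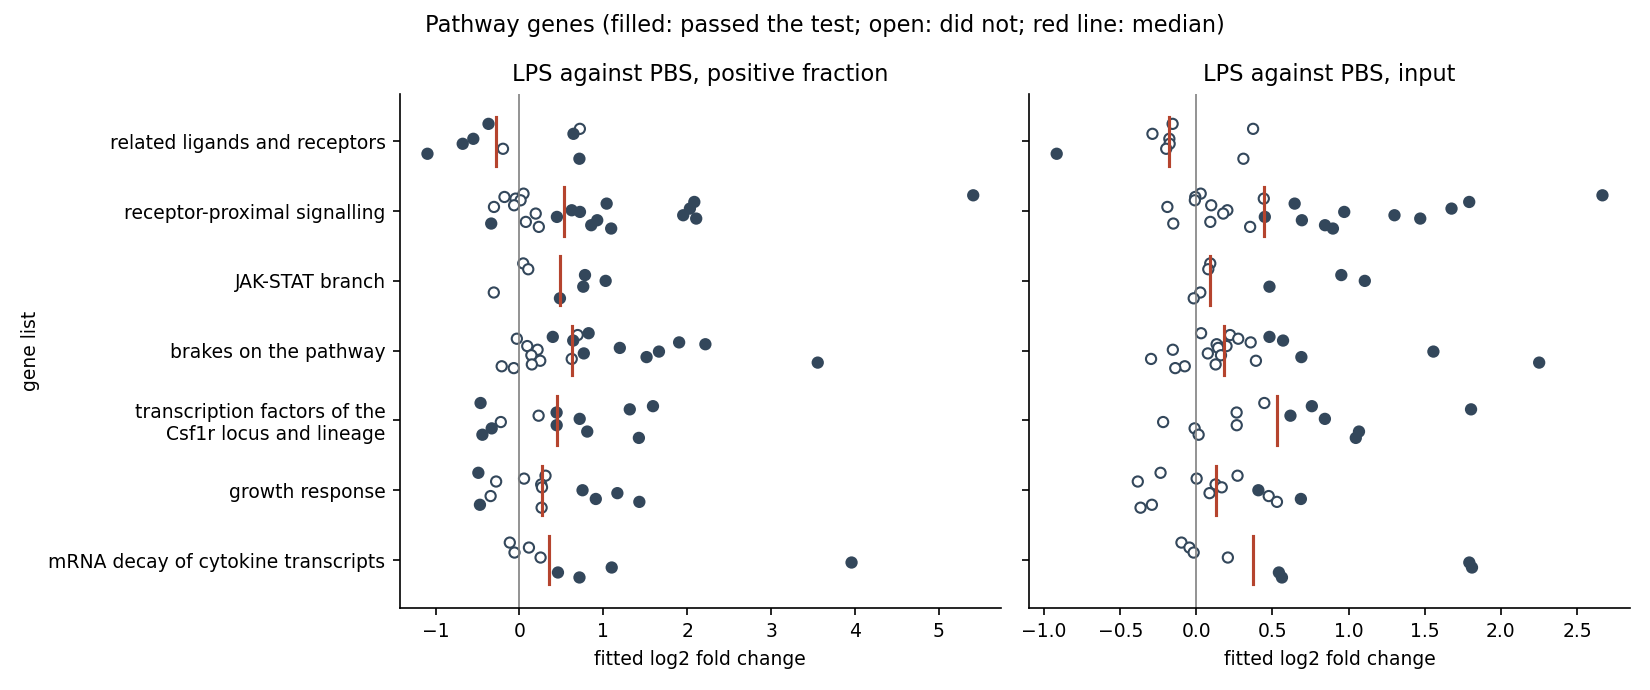
Fitted log2 fold change of LPS against PBS (horizontal axis) of each tested gene of 7 pathway lists in the positive fraction (left) and in input (right), filled where called and open where not, with a red line at the median of each list. The medians of all lists but the related ligands and receptors lie above 0, and Fgr, at 5.41 and 2.67, lies farthest to the right in both panels.

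The genes whose levels ran most like each member were found over the 17 libraries, among tested genes averaging 100 normalised counts or more. The points share fraction, treatment and animal, so these correlations are descriptions. Csf1r ran with Laptm5, Ctss and Rnaset2a (Pearson r rounding to 1.00 for each), and Csf3r with Olfml3, Tbxas1 and Fgd2 (0.99 each). Csf2rb ran with Slc15a3, Csf2rb2 and the LPS co-receptor gene Cd14, and Csf2rb2 with Csf2rb, Il4ra and Slc15a3 (0.99 each). Csf2ra ran with Shmt2 (0.97), Hmg20b (0.96) and Wnk1 (0.96). Among the ligands, Csf3 ran with Lcn2 (0.99), Serpina3n (0.98) and Cxcl1 (0.97), Csf1 with Pla1a (0.94), Tma16 (0.93) and Chi3l1 (0.93), and Il34 with Paqr9 (0.97), Cdh11 (0.97) and Rprd1a (0.96).

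Promoters of 4 of the 8 genes were in the RefSeq table (GRCm38.p6, the assembly of mm10), and the 250 bases before the start were searched on both strands for 5 motifs, an NF-kB site by its name, GAGGAAGT for PU.1, TTCNNNGAA for STAT, TTNCNNAA for C/EBP and TGANTCA for AP-1. Among 27025 promoters of that length 7.01% held the NF-kB motif, 2.44% PU.1, 7.18% STAT, 36.9% C/EBP and 6.87% AP-1. Csf1 and Csf3r, which moved in opposite directions in the positive fraction, each held 1 NF-kB match, at 154 to 145 and 129 to 120 bases before the start. Csf2rb2 held 1 STAT match at 15 to 7 bases before the start, and Csf2ra 1 C/EBP match at 31 to 24. Distances are from the RefSeq start, which for Csf2rb2 lies upstream of the end at 78305603 given above for that gene. No match overlapped another. Both NF-kB promoters and that of Csf2rb2 are shown in the direction of the gene, with the match in capitals, at chr3:107760470-107760719 (minus strand) for Csf1, chr4:126024409-126024658 (plus) for Csf3r and chr15:78305722-78305971 (minus) for Csf2rb2. A match describes letters in the window and is not a measured binding site.
Csf1, promoter: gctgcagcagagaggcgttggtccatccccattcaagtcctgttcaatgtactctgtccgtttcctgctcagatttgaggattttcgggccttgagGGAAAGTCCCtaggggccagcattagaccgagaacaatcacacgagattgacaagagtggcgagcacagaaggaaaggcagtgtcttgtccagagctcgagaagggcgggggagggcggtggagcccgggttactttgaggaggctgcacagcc
Csf3r, promoter: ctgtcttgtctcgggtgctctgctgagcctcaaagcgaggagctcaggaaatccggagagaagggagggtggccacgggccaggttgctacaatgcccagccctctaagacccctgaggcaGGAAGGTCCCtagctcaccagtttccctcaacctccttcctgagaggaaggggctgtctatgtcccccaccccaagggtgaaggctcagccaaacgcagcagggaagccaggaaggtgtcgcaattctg
Csf2rb2, promoter: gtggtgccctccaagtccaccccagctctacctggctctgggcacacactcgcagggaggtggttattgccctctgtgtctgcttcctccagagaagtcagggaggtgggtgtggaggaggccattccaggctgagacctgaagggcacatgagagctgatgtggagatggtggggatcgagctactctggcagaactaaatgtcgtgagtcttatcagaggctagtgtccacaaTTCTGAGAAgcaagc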

How the data were processed

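Input and positive-fraction RNA of 9 mice was sequenced with a strand-specific kit. The authors trimmed paired 50-base reads by 2 and 6 bases, aligned them to mm10 in Strand NGS and deposited, per gene and library, estimated counts, of which 81.7% of the nonzero values were not whole, and normalised log2 values. The estimated counts were rounded and scaled by median-of-ratios size factors (0.766 to 1.32, from 15766 genes). The deposited log2 values were used only as an alternative. Genes with over 20 normalised counts in every library of at least 1 group were tested (14803 of 21427 with a count) with edgeR 4.0.16 in R 4.3.3, a quasi-likelihood fit with a mean per group over 17 libraries and 13 residual degrees of freedom, and Benjamini-Hochberg adjustment over all genes. Standard errors are the log2 fold change divided by the square root of F. The fit was tried on simulated counts of unpaired libraries with the same dispersion for every gene, which does not test it on paired libraries. Input and positive libraries of an animal are paired: their deviations from the group means correlated in all 8 complete pairs (r 0.153 to 0.585). Alternatives were TMM scaling, DESeq2 1.42.0, limma 3.58.1, other filters, subsets of libraries, sex, the animal as a block, other pseudocounts and the deposited log2 values.

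Ratios used a pseudocount of 1 and exact two-sided permutation tests over all arrangements of the libraries of a fraction. Levels per kilobase used the exonic length of each gene, and aligned sequences came from Biopython 1.88. Named genes of the set and its pathway lists were the 8 members, all related ligands and receptors, and others by rule. The rule took the 3 called genes of largest absolute change in each pathway list and comparison used. Src, Sall1, Mef2c and Mki67 were named outside this rule, and their values were not followed through the alternatives. Some genes that this rule takes are not reported here. The members and lists were chosen with earlier results of these data known. Spi1 was matched by gene ID. The precision of each value is set by the 4 or 5 animals of a group.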

Additional observations from a re-analysis of the deposited data

Results flagged for a closer look

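Csf1r in the positive fraction of LPS animal 266 was 34774 normalised counts, farther below the other 4 LPS animals than the Dixon limit allows. Il34 in the input of PBS animal 272 was 1109 normalised counts, farther above the other 3 PBS animals than that limit. Of 32 sets of values of the 8 genes examined in this way, 2 stood out, and chance alone marks about 1 in 20. The LPS effect on Csf2ra was larger in the positive fraction than in input by 1.41 on the log2 scale, by the test of the difference itself.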

How the results depend on the processing

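The 40 values of 8 genes in 5 comparisons were recomputed under up to 28 alternatives, 1111 values in all. In 32 of the 40 no call changed, and no called value reversed. Among the 32 are both LPS effects of Csf3, whose passing the filter rested on them. With each library left out in turn, the LPS effect stayed called for 7 of the 8 genes in the positive fraction and 4 in input. Each of these counts includes Csf3, and in the main fit 6 and 3 of the other 7 genes were called. Over all genes, LPS calls then lay between 4436 and 5113 in the positive fraction and between 1456 and 1980 in input. Of the 8 genes, 4 to 6 and 6 to 7 were called for positive over input in PBS and LPS animals, and 1 each time for the difference. For the difference, 0 genes were called without animals 506 and 507, and 2 with the animal as a replicate block, which changed 3 of 40 calls (Csf2ra in PBS animals, Csf3 in LPS animals, Csf3r for the difference) and no other. The change in the log2 ratio of Csf1 to Il34 in input ran from 0.81 to 0.94 with each library left out (exact permutation p = 0.0571, the smallest that 3 against 4 allow), and that of Csf2rb to Csf2rb2 in the positive fraction from 0.056 to 0.23, the highest without Positive PBS 273 (exact permutation p = 0.0357).

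With the deposited log2 values or with all 18 libraries, the median of all genes for positive over input moved to -0.13 and -0.12 in PBS and to -0.14 and -0.11 in LPS animals. Calls higher and lower went from 3057 and 2848 to 2283 and 3890 or 2223 and 3700 in PBS animals, and from 4005 and 3903 to 3362 and 4828 or 3409 and 4495 in LPS animals. Under both, Csf1 in LPS animals (-0.35 and -0.34) and Il34 in PBS animals (-0.41 and -0.40) were called lower. Over all genes, the difference was called for 1023, for 322 without animals 506 and 507 and for 1918 with the block, and LPS in input for 1830 and for 1084 without those animals. Csf1 in PBS animals was -0.30 and not called without them (edgeR adjusted p = 0.0545). Csf2ra in PBS animals was called in a fit of the PBS libraries alone (0.45). Among the pathway genes, calls were lost in 13 of 28 alternatives for Zfp36l2 and 8 of 28 for Stat5a in input, 8 of 28 for Cebpa, 6 of 28 for Flt3 and 5 of 27 for Il3ra in the positive fraction, and 6 of 27 for Sdc1 in input, all without a change of sign. The difference for Socs3 ran from 1.12 to 1.497 over 27 alternatives, and its call was lost in 1 of them, without animals 506 and 507 (1.29, adjusted p = 0.0933). The exact test planned for a gene that failed the filter was not run, since all 8 passed. The causes were not tested. Few reads limit Csf3 in PBS libraries and Csf2 in all.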

Other observations

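Among the 5 Positive LPS libraries, animals 270 and 271 had the highest Csf2rb (3081 and 2729 normalised counts) and Csf2rb2 (1811 and 1661) and the lowest Csf2ra (869.9 and 1117) and Csf3r (662 and 656). The summed levels of monocyte markers (1105 and 834) and of border-associated macrophage markers (3948 and 3498) were also lowest in these animals. In animals 266, 267 and 507 the monocyte sums were 1960, 1614 and 1968 and the border-associated macrophage sums 4799, 4741 and 5939. In Positive PBS, animal 268 had the highest Csf2ra (988) and the highest monocyte (3149) and border-associated macrophage (10046) sums. Animal 506 had nearly as high a border-associated macrophage sum (9965), but the lowest Csf2ra of that group (652) and a monocyte sum of 1397. A link between these levels was not tested.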
